A study of Mus musculus with 8 samples.

Results

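The genes described here are the TAM receptors Tyro3, Axl and Mertk and 7 further genes through which phagocytes find and engulf apoptotic cells: the bridging ligands Gas6, Pros1 and Mfge8, the receptors Timd4 and Lrp1, and the engulfment proteins Elmo1 and Dock1. They were selected by gene symbol in the platform annotation, which named a probe set for 9 of the 10 genes and gave 13 probe sets out of 45037. Axl had no named probe set here and has no value below. Because the 10 genes were picked with results of this same comparison known, their levels and differences are a description, and no p-value is attached to any of them.

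The arrays compared 2 states of 1 transformed mouse bone marrow culture system, with 4 arrays each. Meis1 deleted cells had received 2 µM 4-hydroxytamoxifen, which activates a Cre-ERT2 recombinase knocked in at Rosa26 and removes the floxed Meis1 cDNA, and they keep Hoxa9. Hoxa9 and Meis1 cells had received no 4-hydroxytamoxifen. Both groups came from C57BL/6 mice carrying Rosa26-Cre-ERT2, both had been immortalized by retroviruses for Hoxa9 and floxed Meis1, and both were grown with interleukin-3. The drug and the recombinase activity were thus present in the deleted group alone and cannot be told apart from the loss of Meis1. The labels name neither clones nor separate cultures, so p-values measure the spread between these arrays, which may be technical.

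Dying cells expose phosphatidylserine, a lipid that healthy cells hold on the inner face of the plasma membrane. Gas6 and protein S (the product of Pros1) bind it through a vitamin K-dependent domain and bridge it to the TAM receptor tyrosine kinases, of which Mertk is the main one for engulfment by macrophages. Mfge8 bridges the same lipid to integrins that contain the alpha v chain, the Timd4 product binds it directly, and Lrp1 is a large endocytic receptor that can act with calreticulin and C1q. Elmo1 and Dock1 together activate the small GTPase Rac, which drives the phagocytic cup. TAM signalling is also known to dampen toll-like receptor and interferon responses in macrophages and dendritic cells.

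The 4 promoters shown belong to the genes with a probe set that differed by at least 2-fold. Each line gives 280 bases, 250 before the annotated start and 30 from it, 5′ to 3′ on the gene's strand, from RefSeq on GRCm38.p6, and capitals mark any searched motif.
Mertk, chr2:128698665-128698944, plus strand: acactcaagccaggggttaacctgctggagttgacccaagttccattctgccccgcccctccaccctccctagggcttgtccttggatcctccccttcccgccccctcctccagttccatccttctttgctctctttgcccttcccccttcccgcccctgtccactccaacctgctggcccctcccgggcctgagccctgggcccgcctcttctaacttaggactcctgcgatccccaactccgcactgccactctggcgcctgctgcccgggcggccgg
Gas6, chr8:13494506-13494785, minus strand: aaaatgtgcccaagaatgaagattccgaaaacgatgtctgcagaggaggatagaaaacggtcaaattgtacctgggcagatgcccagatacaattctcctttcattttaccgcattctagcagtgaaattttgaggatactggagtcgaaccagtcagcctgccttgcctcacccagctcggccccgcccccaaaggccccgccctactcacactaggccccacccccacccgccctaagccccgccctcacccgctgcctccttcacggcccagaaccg
Mfge8, chr7:79149031-79149310, minus strand: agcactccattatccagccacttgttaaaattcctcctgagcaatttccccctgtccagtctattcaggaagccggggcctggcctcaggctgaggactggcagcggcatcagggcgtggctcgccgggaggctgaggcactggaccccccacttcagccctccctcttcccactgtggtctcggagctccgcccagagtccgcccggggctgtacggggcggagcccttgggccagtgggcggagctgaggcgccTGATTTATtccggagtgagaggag
Lrp1, chr10:127621119-127621398, minus strand: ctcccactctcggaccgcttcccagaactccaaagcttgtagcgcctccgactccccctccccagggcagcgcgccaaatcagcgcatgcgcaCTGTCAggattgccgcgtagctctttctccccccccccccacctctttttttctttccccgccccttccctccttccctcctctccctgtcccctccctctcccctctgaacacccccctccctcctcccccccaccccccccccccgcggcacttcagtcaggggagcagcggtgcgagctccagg

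All 10 genes had a promoter entry, 11 windows of 300 bases in all because Elmo1 had 2, and 6 motifs were searched on both strands, none of which overlapped another in these windows. TGATTTAT, a core that Hoxa9 binds together with Meis1 or Pbx proteins, was present in the Mfge8 window alone, starting at base 7 counted from the annotated start as base 1, against 0.977% of all 32851 windows. TGATTTAC, the same core with another last base, was in none of the 11 and in 0.551% of all windows. TGACAG, the core bound by Meis proteins, was in the Lrp1 window on the opposite strand, at position -157 from the start, and 4 times in the Timd4 window, against 19.2% of all windows. GAGGAAGT, an ETS core of Spi1, was in 1 Elmo1 window (3.2% of all), while the core of the interferon-stimulated response element, searched as GAAA, any 2 bases and GAAA (3.44% of all), and the Mitf E-box CACGTG (7.15% of all) were in none. The Mertk and Gas6 windows held no searched motif. The motifs were chosen after the promoter sequences had been read, so the matches and shares are a description. A match describes the letters in the window and is not evidence of binding.

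The arrays were similar in scale. Their median log2 value lay between 4.69 and 4.74, and each correlated with the others of its group at a mean r of 0.993 to 0.998. By the spiked bioB control they fell into 2 array sets: set 1 held 3 Meis1 deleted and 2 Hoxa9 and Meis1 arrays, and set 2 held 1 and 2. Meis1 deleted replicate 1 stood apart, with a 3′ minus 5′ signal of Gapdh of 0.72, against -0.07 to 0.04 on the other 7 arrays. Meis1 itself read 5.02 ± 0.07 in Meis1 deleted cells and 5.00 ± 0.05 in Hoxa9 and Meis1 cells (log2 fold change 0.02 ± 0.05, SE; limma adjusted p = 0.759). The sources used here do not say if its probe set covers the viral transcript, so it does not check the deletion. Of 11836 genes tested, 35.5% passed limma's test at an adjusted p of 0.05, 18.1% higher and 17.5% lower in Meis1 deleted cells.

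The labelled identity, an immortalized myeloid cell, fitted the markers: all 10 myeloid progenitor markers, Mpo and Elane among them, had a mean above 6.42, the median over probe sets that passed the filter on low values. Of these 10, 5 rose and 3 fell in Meis1 deleted cells. Mpo and Elane moved in opposite directions, with log2 fold changes of 0.59 and -0.50. Markers of mature phagocytes also differed between the groups. Of 10 macrophage markers 7 were tested and 6 of these rose, and their summed level was 12.79 to 12.84 (log2) in Meis1 deleted cells, against 11.24 to 11.34 in Hoxa9 and Meis1 cells. Cd163, Vsig4 and Marco, which mark resident macrophages, were under the filter on low values. Of 9 neutrophil markers tested 8 rose and 1 fell, with a summed level of 14.49 to 14.52 in Meis1 deleted cells, against 13.65 to 13.72 in Hoxa9 and Meis1 cells. Of 8 tested megakaryocyte and platelet markers 4 rose, led by Pf4 and Ppbp, with a summed level of 10.99 to 11.11 in Meis1 deleted cells, against 8.35 to 8.45 in Hoxa9 and Meis1 cells, whereas Itga2b, Gp9, Gp6 and Gp5 did not pass. Vwf, among the 4 that rose, had a mean of 4.91 in Meis1 deleted cells and 4.04 in Hoxa9 and Meis1 cells. All its Hoxa9 and Meis1 arrays lay under the filter threshold, so it passed the filter through the Meis1 deleted group and had to differ. Of 10 markers of stroma, a cell type that also expresses Gas6, Mfge8 and Lrp1, 8 were under the filter, including Col1a1, Col1a2, Col3a1, Pdgfra and Pdgfrb. The summed level of the stroma list was 10.03 to 10.26 in Meis1 deleted cells, against 11.24 to 11.39 in Hoxa9 and Meis1 cells. That sum was carried by Thy1, which blood cells can also express, with 9.89 ± 0.12 in Meis1 deleted cells and 11.20 ± 0.08 in Hoxa9 and Meis1 cells, and the other tested stroma marker, Fbln1, did not pass. In such bulk samples a larger share of cells of a type and more RNA per cell cannot be told apart, and the part of these markers in the differences below was not tested.

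Mertk, Mfge8 and the main probe sets of Gas6 and Lrp1 were higher in Meis1 deleted cells, by 2.13-fold to 16.2-fold, while Pros1, Elmo1, Dock1 and the main Tyro3 probe set differed by 1.21-fold or less. The second Gas6 probe set differed little, by 0.13 on the log2 scale, and the second Lrp1 probe set was lower, by 0.18. In the fit over all genes 4 of the 8 members tested passed as higher and 0 as lower, beside the 18.1% and 17.5% of all genes, and nothing is read from those counts. At an unadjusted p of 0.05 the count of lower members by limma was also 0, on the probe set that stood for each gene. The share of all genes at that threshold is not given here, and nothing is read from this count either. Of the 13 probe sets, 10 passed the filter, which left out the lowest 40% (under log2 4.29). Without overlap between the groups, 6 of the 13 were higher and 1 was lower, beside 10.9% and 13.0% of all probe sets, or 23.9% in either direction (19.7% of tested genes were higher without overlap). At least 2-fold higher were 4 of 13, beside 1.12% of all probe sets.

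**Figure D1:**
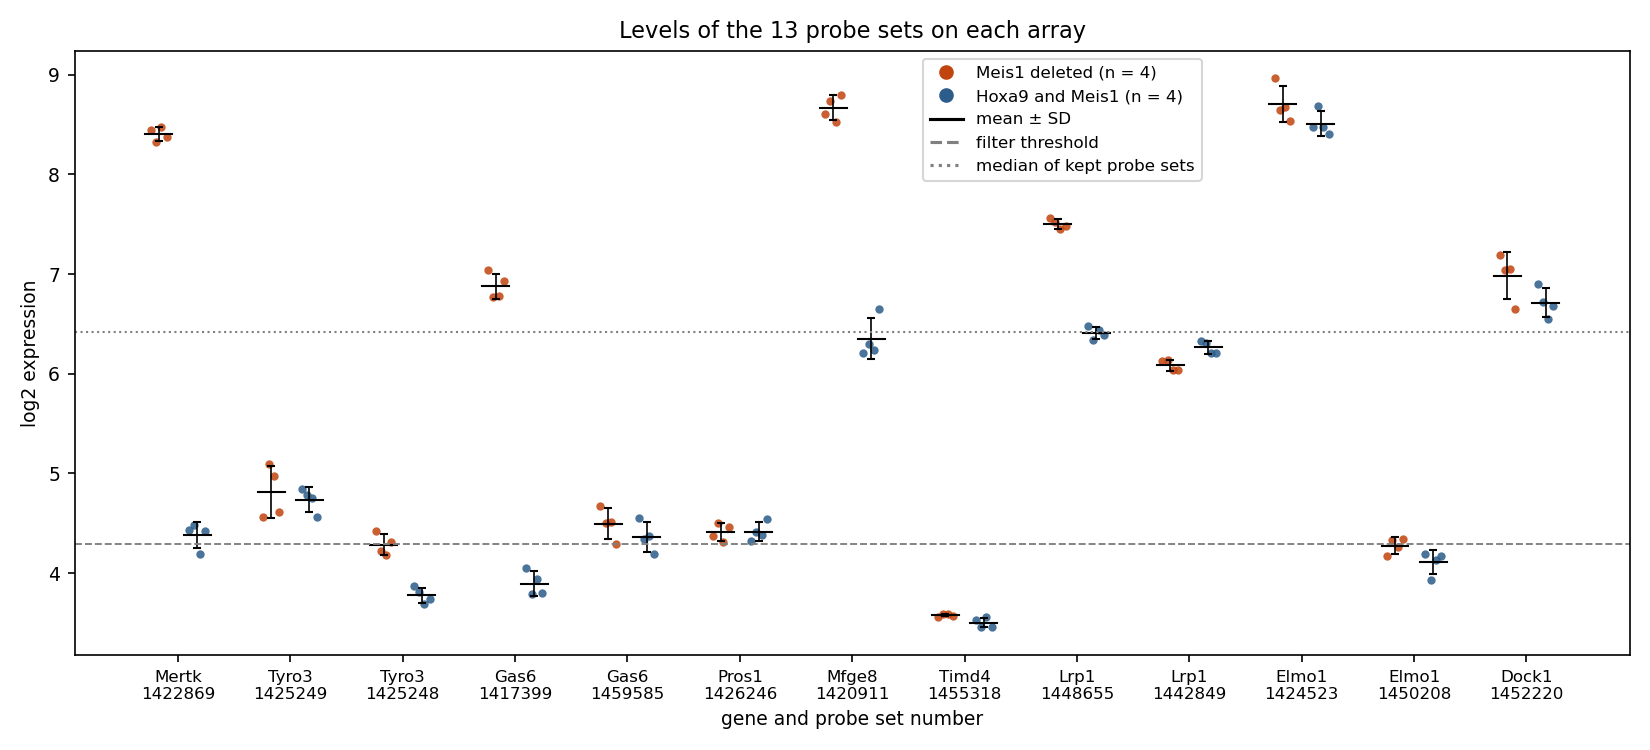
Log2 expression (y axis) of the 13 probe sets (x axis, gene and probe set number) on each array, with Meis1 deleted arrays to the left of Hoxa9 and Meis1 arrays and bars for the mean and SD of 4 arrays. Mertk, Mfge8, the first Gas6 and the first Lrp1 probe set separate the groups widely, with Meis1 deleted arrays higher, while Pros1, Elmo1, Dock1 and the first Tyro3 probe set overlap.

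Mertk, the TAM receptor that macrophages use to engulf dying cells, had the largest difference of the 9 genes. Its log2 level was 8.45, 8.32, 8.47 and 8.37 on the Meis1 deleted arrays, against 4.44, 4.48, 4.20 and 4.42 on the Hoxa9 and Meis1 arrays. All Meis1 deleted arrays were high and close to each other, all Hoxa9 and Meis1 arrays were near the filter threshold, and the closest arrays of the groups were 3.84 apart. The means were 8.40 ± 0.07 and 4.38 ± 0.13 (SD, n = 4 each), a log2 difference of 4.02 ± 0.07 (SE), or 16.2-fold. It was 3.96 within array set 1 and 4.06 within set 2. Since the Hoxa9 and Meis1 level lay close to the filter threshold, the size depends on the treatment of low values, and with an offset of 64 added on the linear scale it was 2.25.

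Tyro3, the TAM receptor better known from the nervous system, gave no such separation. Its kept probe set (1425249) read 4.56, 5.09, 4.97 and 4.62 in Meis1 deleted cells, against 4.85, 4.78, 4.76 and 4.56 in Hoxa9 and Meis1 cells. The groups overlapped, and the log2 difference was 0.07 ± 0.12 (SE), with 0.06 within array set 1, -0.04 within set 2 and -0.02 to 0.16 with any array left out. The other probe set (1425248) did not overlap between groups, at 4.18 to 4.42 in Meis1 deleted cells and 3.69 to 3.87 in Hoxa9 and Meis1 cells, a difference of 0.51, but its mean lay under the filter threshold in both groups. The 2 probe sets thus disagreed in whether the groups separate.

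Among the bridging ligands, Gas6, the ligand of all TAM receptors, was higher on its main probe set (1417399). It read 7.04, 6.77, 6.78 and 6.93 in Meis1 deleted cells, against 4.05, 3.79, 3.94 and 3.80 in Hoxa9 and Meis1 cells. Every Meis1 deleted array was above that median of 6.42, and every Hoxa9 and Meis1 array was under the filter threshold, so this probe set passed the filter through the Meis1 deleted group and had to differ. The means were 6.88 ± 0.13 and 3.89 ± 0.12 (SD, n = 4 each), and the log2 difference was 2.99 ± 0.08 (SE), 2.94 within array set 1 and 3.06 within set 2. With an offset of 64 it was 1.20. The other Gas6 probe set (1459585) read 4.30 to 4.67 in Meis1 deleted cells and 4.19 to 4.55 in Hoxa9 and Meis1 cells, overlapped, and differed by 0.13, and the mean of both gave 1.56.

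Mfge8, the milk fat globule protein that bridges phosphatidylserine to integrins, was well measured in both groups. Its log2 level was 8.61, 8.74, 8.53 and 8.80 in Meis1 deleted cells, against 6.21, 6.30, 6.24 and 6.65 in Hoxa9 and Meis1 cells. The groups were 1.87 apart at their closest, with Hoxa9 and Meis1 replicate 4 the highest of its group. Means were 8.67 ± 0.12 and 6.35 ± 0.20 (SD, n = 4 each), a log2 difference of 2.32 ± 0.10 (SE), or 4.98-fold. It was 2.37 within array set 1 and 2.35 within set 2, and 1.69 with an offset of 64. The TGATTTAT core in the sequence shown above belongs to this gene, and its part in the difference was not tested.

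Pros1, which encodes protein S, a TAM ligand and anticoagulant cofactor, stayed close to the filter threshold. It read 4.37, 4.50, 4.31 and 4.46 in Meis1 deleted cells, against 4.33, 4.41, 4.38 and 4.55 in Hoxa9 and Meis1 cells, with full overlap. The log2 difference was -0.01 ± 0.06 (SE). At this level the arrays cannot separate absence of the transcript from a low level.

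Timd4, the phosphatidylserine receptor of resident macrophages, was under the filter and was not tested. Its log2 level was 3.56, 3.58, 3.59 and 3.57 in Meis1 deleted cells, against 3.53, 3.46, 3.55 and 3.46 in Hoxa9 and Meis1 cells. The groups did not overlap, but the closest arrays differed by 0.0093 and the means by 0.08, with every array under the filter threshold.

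Lrp1, the endocytic receptor, gave opposite results on its 2 probe sets. The probe set with the higher mean (1448655) read 7.56, 7.52, 7.45 and 7.48 in Meis1 deleted cells, against 6.48, 6.34, 6.44 and 6.39 in Hoxa9 and Meis1 cells, with no overlap. Its means were 7.50 ± 0.05 and 6.41 ± 0.06 (SD, n = 4 each), a log2 difference of 1.09 ± 0.05 (SE), or 2.13-fold, with 1.10 and 1.06 within array sets 1 and 2. The other (1442849) read 6.13, 6.13, 6.04 and 6.04 in Meis1 deleted cells, against 6.33, 6.31, 6.21 and 6.20 in Hoxa9 and Meis1 cells, again with no overlap but lower by 0.18 (-0.22 and -0.17 within the array sets). Averaging both gave a log2 difference of 0.46, and the files do not say which part of the transcript each probe set reads.

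Elmo1 and Dock1, the subunits of the Rac exchange factor, overlapped between the groups, and the main Elmo1 probe set and Dock1 were well above the filter threshold in both. The main Elmo1 probe set (1424523) read 8.97, 8.65, 8.68 and 8.54 in Meis1 deleted cells, against 8.48, 8.69, 8.48 and 8.40 in Hoxa9 and Meis1 cells, a log2 difference of 0.20 ± 0.10 (SE). The other Elmo1 probe set (1450208) was under the filter and differed by 0.17. Dock1 read 7.20, 7.04, 7.05 and 6.65 in Meis1 deleted cells, against 6.90, 6.72, 6.55 and 6.68 in Hoxa9 and Meis1 cells, a difference of 0.27 ± 0.12 (SE). Meis1 deleted replicate 1 was the highest array for both genes, and without it the differences were 0.11 for Elmo1 and 0.20 for Dock1. For Dock1 the difference was 0.29 within array set 1 and 0.03 within set 2, and it was 0.38 without Meis1 deleted replicate 4.

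**Figure D2:**
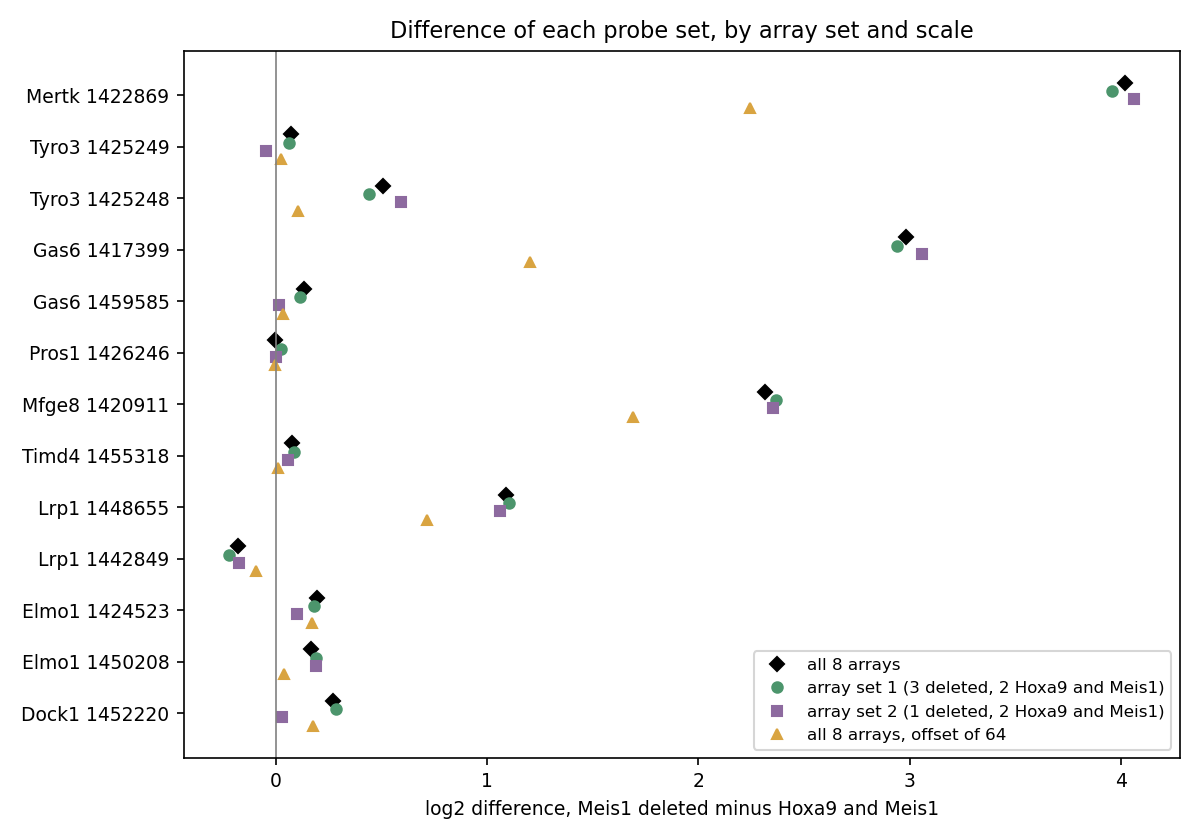
Log2 difference, Meis1 deleted minus Hoxa9 and Meis1 (x axis), of each of the 13 probe sets (y axis) over all 8 arrays, within each array set, and with an offset of 64. Mertk, Gas6 1417399, Mfge8 and Lrp1 1448655 keep their difference within both array sets and have a smaller one with the offset, and Lrp1 1442849 lies below 0 in all 4.

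The genes whose pattern over the 8 arrays was most like that of Mertk were Saa3, an acute-phase protein (Pearson r = 0.9997), Marcks, a membrane-bound actin regulator (0.9997), and Clec10a, a lectin of macrophages and dendritic cells (0.9994). Their log2 levels were 11.67 ± 0.05, 7.02 ± 0.06 and 7.48 ± 0.03 in Meis1 deleted cells, against 7.79 ± 0.08, 3.35 ± 0.06 and 5.31 ± 0.05 in Hoxa9 and Meis1 cells. The correlation mostly restates that each separates the groups. For Tyro3, whose groups overlapped, the closest patterns were those of Fbll1 (0.969), Ndufaf8 (0.967) and Ntng1 (0.964).

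Other genes of apoptotic cell clearance were taken from 6 lists, which had a probe set for 115 genes and a tested one for 100. Of these 37 rose and 10 fell, which is 37.0% and 10.0%, with a median log2 fold change of 0.12. Over all genes 18.1% rose and 17.5% fell, with a median of -0.0044. Within array set 1, 25 rose and 4 fell, and within set 2, 28 rose and 5 fell, with fewer arrays in each. The 10 falls were the less stable count, at 14 without Meis1 deleted replicate 1 and at 5 or 6 without any 1 of the other 7 arrays, whereas the rises stayed between 31 and 39. The lists were chosen with earlier results of these data known. The shares, and the adjusted p-values printed for list genes below, are therefore a description and not independent evidence. No test of a list as a whole was made, and the rises include C1qa and Plau, which passed the filter through the Meis1 deleted group. Macrophage markers differed between the groups too, at the summed levels given above, and their part in the counts was not tested.

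**Figure D3:**
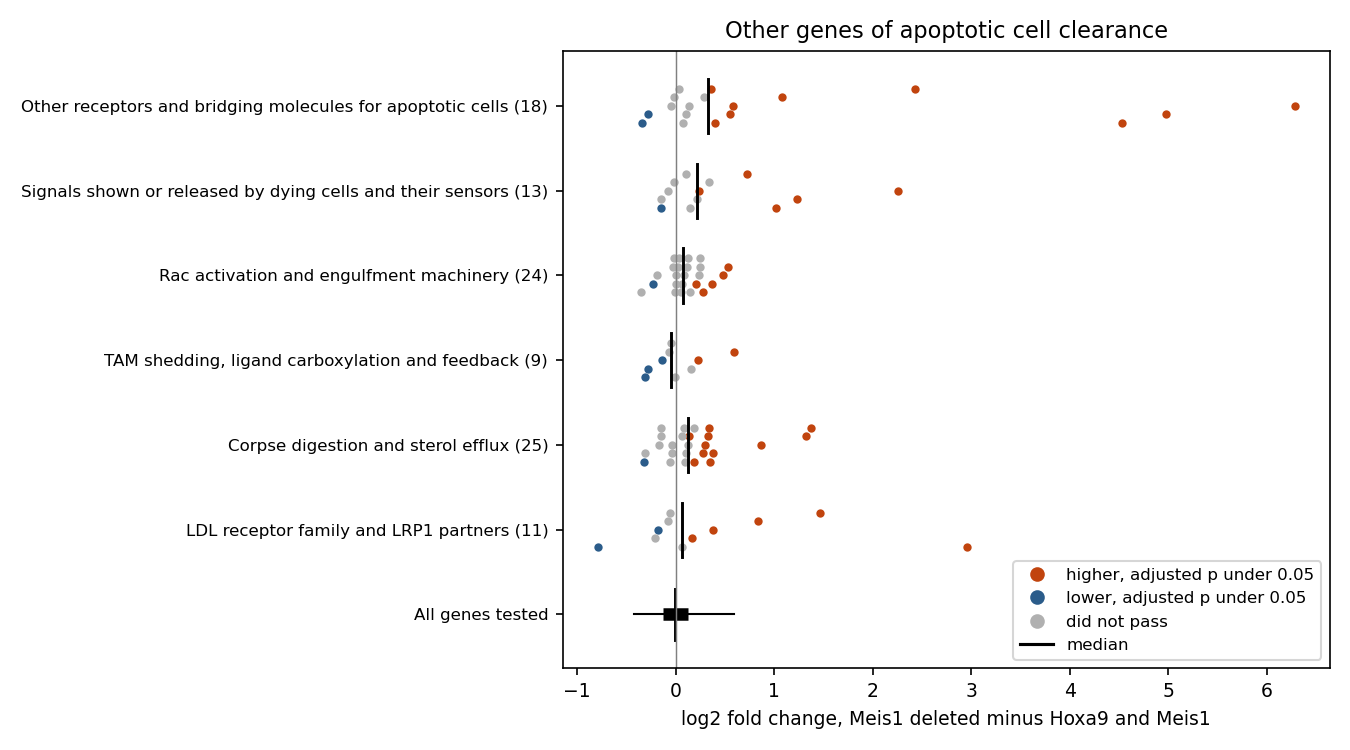
Log2 fold change, Meis1 deleted minus Hoxa9 and Meis1 (x axis), of the 100 tested genes in 6 lists (y axis, number tested in brackets), coloured by limma's call, with a vertical bar at each list's median. The lowest row gives all 11836 genes, with a thin line for the 5th to 95th percentile (-0.42 to 0.59) and a thick one for the 25th to 75th (-0.13 to 0.13), and the C1q genes lie farthest to the right.

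Other receptors and bridging molecules held the largest rises. Of 18 tested, 9 rose and 2 (Scarb1 and Itgb3) fell, with a median of 0.32. The 3 chains of C1q, a complement protein that coats dying cells, led: C1qb was 10.93 ± 0.06 in Meis1 deleted cells and 4.64 ± 0.15 in Hoxa9 and Meis1 cells (log2 fold change 6.28 ± 0.07, SE; limma adjusted p = 6.69e-11). C1qc rose by 4.53 ± 0.08 (limma adjusted p = 3.45e-10). C1qa was 8.83 ± 0.10 in Meis1 deleted cells and 3.86 ± 0.15 in Hoxa9 and Meis1 cells, a difference of 4.97, and since all its Hoxa9 and Meis1 arrays lay under the filter threshold it passed the filter through the Meis1 deleted group and had to differ. With an offset of 64 the C1qa difference was 2.73. Trem2, a lipid-sensing receptor of macrophages, was 9.14 ± 0.19 in Meis1 deleted cells and 6.72 ± 0.08 in Hoxa9 and Meis1 cells (2.42 ± 0.09, limma adjusted p = 6.46e-08), and the mean of its probe sets gave 1.15. Among the integrin chains that can receive Mfge8, chosen for this role after their values were seen, Itgav did not pass (0.11 ± 0.05, limma adjusted p = 0.105), Itgb5 rose by 0.55 ± 0.09 (limma adjusted p = 0.00133) and Itgb3 fell by 0.28 (limma adjusted p = 0.0129).

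Among signals of dying cells and their sensors, 5 of 13 rose and 1, Cd47, fell, a call lost without any 1 of the 8 arrays. P2ry6, a receptor for nucleotides that dying cells release, was 7.64 ± 0.26 in Meis1 deleted cells and 5.39 ± 0.17 in Hoxa9 and Meis1 cells (log2 fold change 2.25 ± 0.13, SE; limma adjusted p = 1.45e-06), or 1.32 with an offset of 64. Sirpa, the phagocyte receptor for the inhibitory ligand Cd47, rose by 1.23 ± 0.11 (limma adjusted p = 2.97e-05), and S1pr2, a receptor for sphingosine 1-phosphate, rose by 1.01 ± 0.13 (limma adjusted p = 2.15e-04), or 0.50 with that offset. Ano6, a scramblase that exposes phosphatidylserine, rose by 0.72 ± 0.11 (limma adjusted p = 8.96e-04). The median of the 13 was 0.22.

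In the Rac activation and engulfment machinery around Elmo1 and Dock1, 5 of 24 tested genes rose and 1, the adaptor Crk, fell, with a median of 0.07. The rises numbered 3 without any 1 of the 4 Hoxa9 and Meis1 arrays. The Crk groups overlapped, and the falls numbered 0 in 7 of the 8 fits with 1 array left out, all but that without Meis1 deleted replicate 1. Nckap1l, a subunit of the WAVE complex of blood cells, rose by 0.53 ± 0.07 (limma adjusted p = 2.00e-04). Was, an actin regulator, rose by 0.28 ± 0.06 (limma adjusted p = 0.00864), and Vav3, an exchange factor, by 0.36 ± 0.10 (limma adjusted p = 0.0166). Was lost its call within array sets 1 and 2 (limma adjusted p = 0.0935 and 0.0959), and Vav3 (0.155) and Dock2 (0.241) lost theirs within set 1. Dock2, the relative of Dock1 in blood cells, rose by 0.21 ± 0.07 (limma adjusted p = 0.0364), a call lost without any of the 4 Hoxa9 and Meis1 arrays or without Meis1 deleted replicate 1 or 4 (limma adjusted p from 0.0592 to 0.0906).

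In the list of TAM shedding, ligand carboxylation and feedback, 2 of 9 rose and 3 fell (Socs1, Socs3 and Vkorc1), with a median of -0.05. The Socs1 groups overlapped at a low level, with means of 4.69 in Meis1 deleted cells and 4.97 in Hoxa9 and Meis1 cells. The falls numbered 3 without Meis1 deleted replicate 1, 2 without replicate 2 and 1 without replicate 3, and were 0 without replicate 4. Without Hoxa9 and Meis1 replicate 1 or 2 they numbered 0, and without replicate 3 or 4 they numbered 1. Grb2, an adaptor that binds activated receptor tyrosine kinases, was 9.69 ± 0.06 in Meis1 deleted cells and 9.10 ± 0.07 in Hoxa9 and Meis1 cells (0.59 ± 0.05, SE; limma adjusted p = 2.70e-05), and the mean of its probe sets gave 0.37. Ifnar1, the interferon receptor chain with which TAM receptors are known to act, rose by 0.23 ± 0.05 (limma adjusted p = 0.00589, and 0.126 within array set 2). Socs3, a suppressor of cytokine signalling, fell by 0.31 (limma adjusted p = 0.0302), a call lost without Hoxa9 and Meis1 replicate 1 or 2 or Meis1 deleted replicate 3 or 4 (0.0683 to 0.0821). Vkorc1, which recycles the vitamin K needed to carboxylate Gas6 and protein S, fell by 0.14 (limma adjusted p = 0.0352), a call lost in 6 of the 8 fits with 1 array left out (0.0606 to 0.0876), all but those without Meis1 deleted replicate 1 or 3, and also within array set 1 (0.231) and set 2 (0.129).

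Corpse digestion and sterol efflux genes rose in 11 of 25, with a median of 0.13, and 1, the early endosome GTPase Rab5a, fell. Without Meis1 deleted replicate 1 the falls numbered 5. The lysosomal proteases led: Ctsl was 12.14 ± 0.04 in Meis1 deleted cells and 10.77 ± 0.02 in Hoxa9 and Meis1 cells (1.37 ± 0.04, SE; limma adjusted p = 1.25e-08), and Ctsd rose by 1.32 ± 0.07 (limma adjusted p = 9.55e-07). Abcg1, a sterol exporter of macrophages, rose by 0.86 ± 0.05 (limma adjusted p = 9.61e-07), and the mean of its probe sets gave 0.60. The lysosomal membrane protein Lamp2 rose by 0.34 ± 0.05 (limma adjusted p = 5.73e-04), and by 0.32 within array set 2.

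In the LDL receptor family and among partners of Lrp1, 5 of 11 rose and 2, Plaur and Lrp8, fell, with a median of 0.06. The rises include Lrpap1, counted on its probe set with the highest mean (0.17). Its other probe sets were lower, by 0.20 and 0.25, and also passed limma's test. The falls numbered 3 without Meis1 deleted replicate 1 or 4 and 1 without Meis1 deleted replicate 2 or 3 or Hoxa9 and Meis1 replicate 3 or 4. Dab2, an endocytic adaptor, was 9.72 ± 0.07 in Meis1 deleted cells and 6.77 ± 0.11 in Hoxa9 and Meis1 cells (2.95 ± 0.06, SE; limma adjusted p = 1.41e-09). Lrp12, a relative of Lrp1, rose by 0.83 ± 0.04 (limma adjusted p = 7.28e-07). The urokinase system, whose complexes Lrp1 clears from the cell surface, had low values for its protease. Plau, urokinase, was 5.70 ± 0.46 in Meis1 deleted cells and 4.25 ± 0.18 in Hoxa9 and Meis1 cells, a difference of 1.46, or 0.50 with an offset of 64. The Hoxa9 and Meis1 mean of Plau lay under the filter threshold, so it too was kept through the Meis1 deleted group. The receptor Plaur fell by 0.79 (limma adjusted p = 1.60e-06), with 8.61 ± 0.07 in Meis1 deleted cells and 9.40 ± 0.03 in Hoxa9 and Meis1 cells.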

How the data were processed

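Gene expression was measured on 8 1-colour Affymetrix arrays, 4 of Meis1 deleted and 4 of Hoxa9 and Meis1 cells, grouped by the labels. Per the labels, 100 ng of total RNA was used per array and cells grew with 10% serum and 5 ng/ml interleukin-3. The deposited values are log2 expression per probe set, judged so from their range of 2.65 to 13.22, and the authors had put the arrays on a common scale, as their nearly equal medians show. The name MAS5 appears, per the submitters' processing notes, with no role, and how probe sets were summarised is not stated in the sources used here. The design had allowed for linear values, and the log2 values were used as deposited with no pseudocount.

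The lowest 40% of the 45037 probe sets that are not controls were left out, which kept 27022. limma 3.58.1 (lmFit and eBayes, R 4.3.3) was fitted to all kept probe sets. The kept probe set with the highest mean among those with 1 symbol stood for its gene, and p-values were adjusted by Benjamini-Hochberg over these 11836 genes. Differences are Meis1 deleted minus Hoxa9 and Meis1. The fit and the motif search were tested on simulated data. Python 3.11.15 and matplotlib 3.10.9 drew the plots. The members, the lists and the array sets were chosen with earlier results of these data known, and the motifs after the promoter sequences had been read. Named genes are all members, Meis1 and Hoxa9, up to 4 genes per list with the smallest p, and the 3 genes most correlated with each measured TAM receptor. The number of arrays limits the precision. Alternatives covered the offset, normalization, filter, choice of probe set, eBayes options, array weights, the replicate number and array set as blocks, each array set alone and each array left out. Same-numbered arrays did not deviate together (r from -0.131 to 0.289), so the numbers were not treated as pairs.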

Additional observations from a re-analysis of the deposited data

Results flagged for a closer look

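Among 78 groups of 4 arrays tested for a single distant array, 4 held one, and chance alone gives about 1 in 20. Hoxa9 read 8.95 on Meis1 deleted replicate 1, against 9.97 to 10.07 on the other Meis1 deleted arrays. P2ry6 read 5.13 on Hoxa9 and Meis1 replicate 3, with the other arrays of its group at 5.46 to 5.50. Nckap1l read 8.48 on Hoxa9 and Meis1 replicate 3, with the others at 8.40 to 8.41. Ctsl read 10.80 on Hoxa9 and Meis1 replicate 4, with the others at 10.75 to 10.76. None of the 13 probe sets of the TAM receptors, their ligands and the engulfment genes held such an array in either group.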

How the results depend on the processing

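Under the 22 alternative settings, 1 of them added after seeing the data (the variance estimated over gene rows alone), 158 fold changes of the members moved by less than 1 SD between arrays and 7 moved by more. The filter, the eBayes options, the replicate block and the variance over gene rows leave a member's fold change as it was. Part of the 158 therefore could not move. The 7 were Mertk (2.25), Gas6 (1.20), Mfge8 (1.69) and Lrp1 (0.72) with an offset of 64, Gas6 (1.56) and Lrp1 (0.46) with the mean of probe sets, and Dock1 within array set 2 (0.03). The differences of Tyro3 (0.07) and Pros1 (-0.01), which were not called, changed sign under some settings: Tyro3 was -0.04 within array set 2 and -0.02 without Meis1 deleted replicate 2, and Pros1 reached 0.04 without Hoxa9 and Meis1 replicate 4. With the lowest 60% left out, Gas6, Tyro3 and Pros1 were not tested. Testing each probe set alone, 1 member was called lower (Lrp1), against 0 in the reported fit. Genes changed numbered 2114 within array set 1 and 2158 within set 2, against 4206, and 3426 to 4673 with 1 array left out. Members called higher numbered 4 to 5 and lower 0 with 1 array left out, with Dock1 added only without Meis1 deleted replicate 4. Gas6, among those called in each of these fits, had passed the filter through the Meis1 deleted group. The shares of all genes by direction are not given for these fits, and nothing is read from the member counts. Pathway genes called lower numbered 16 with array weights, 4 and 5 within array sets 1 and 2, and 5 to 14 with 1 array left out, against 10, and those called higher 31 to 39, against 37. Of the other named genes, 517 fold changes kept their call and 27 lost it. Among those that kept it, an offset of 64 gave 2.73 for C1qa, 1.32 for P2ry6, 0.50 for S1pr2 and 0.50 for Plau. The mean of probe sets gave 1.15 for Trem2, 0.92 for Plau, 0.60 for Abcg1 and 0.37 for Grb2. Each array set held fewer arrays than the whole, and the cause of the loss within array sets was not tested.

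With the replicate number as a block, 3906 genes passed, 4 members were higher and 0 lower, and 36 pathway genes were higher and 7 lower. Under the block Dock2 (adjusted p = 0.0561) and Vkorc1 (0.0842) lost their limma calls. Only 2 of 8 arrays correlated best with their own number, so the numbers give no pairing. Low signal limits Pros1, Timd4, Tyro3 and, in Hoxa9 and Meis1 cells, Mertk and Gas6.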

Other observations

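Among 45 genes of the clearance lists with at least 2 kept probe sets, Lrpap1, a chaperone of Lrp1, was the 1 whose probe sets passed limma's test in opposite directions. Its 3 probe sets had log2 fold changes of 0.17 ± 0.05, -0.20 ± 0.05 and -0.25 ± 0.06 (SE), with limma p-values adjusted over probe sets of 0.0388, 0.0122 and 0.0105.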
